A study of Mus musculus with 12 samples.

Results

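The levels of 9 genes that encode transcription factors of blood stem cells were followed in cultured mouse hematopoietic stem cells (HSCs) with and without the leukemia fusion ETV6-RUNX1. They were the HOX genes Hoxa5, Hoxa7, Hoxa9, Hoxa10, Hoxb4 and Hoxb5, the HOX cofactor genes Meis1 and Pbx3, and Mecom. The genes were chosen by name, with earlier results of these data known. Each matched 1 gene ID, and they are 9 of the 40481 genes in the deposited table. All 9 passed the filter on low levels, with at least 1.75 CPM (reads scaled to a fixed total of the library) in each of the 12 libraries.

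RNA was sequenced from 4 groups of 3 libraries. Wild-type (WT) mice and mice with an inducible ETV6-RUNX1 allele (iE/R in the labels) each gave HSCs of 2 ages, those of the E14.5 fetal liver and those of the bone marrow of animals 8 weeks old. The cells of all 4 groups, WT included, were held for 3 days in HSC expansion culture with doxycycline at 1 µg/mL, so that no group was without the drug, and fetal liver and bone marrow differ in age as well as in organ. The labels name neither the promoter and insertion site of the allele nor the number of animals behind a library, so p-values measure the spread between these libraries, which may be technical in part. ETV6-RUNX1 joins parts of 2 transcription factor genes and occurs in childhood B-cell leukemia, and the series title asks how the age of the stem cell bears on what the fusion does.

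HOX proteins bind DNA through a homeodomain, and in blood the HOXA and HOXB clusters are the active ones. The MEIS and PBX proteins are homeodomain cofactors that bind beside HOX proteins and sharpen the choice of sites, and HOXA9 with MEIS1 is a known driver of stem cell programs and of myeloid leukemia. Mecom encodes the zinc finger factor EVI1 and, from an upstream start, the longer MDS1-EVI1, which carries a PR domain, and the locus is needed for the upkeep of HSCs.

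The 4 Hoxa genes lie in a row on the minus strand of chromosome 6 (GRCm38 with GENCODE M21): Hoxa5 at 52201754 to 52204587, Hoxa7 at 52214491 to 52221854, Hoxa9 at 52223100 to 52231089 and Hoxa10 at 52231197 to 52240854. On the plus strand of chromosome 11, Hoxb5 lies at 96303336 to 96306121 and Hoxb4 at 96318267 to 96321638. Meis1 spans 18879817 to 19018985 of chromosome 11, Pbx3 spans 34171457 to 34373142 of chromosome 2 and Mecom spans 29951296 to 30548008 of chromosome 3, all on the minus strand. Reads were counted per gene, so the EVI1 and MDS1-EVI1 forms of Mecom are summed.

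The 250 bases before each start site in RefSeq (GRCm38.p6) were read for 4 short motifs on both strands: TGTGGT for RUNX factors, CCGGAAG for ETS factors, TGACAG for MEIS and TGATNNAT for PBX with HOX. No motif overlaps another in these windows. The table holds 9 start sites of 7 of the genes, without Hoxb5 and Pbx3. Matches were found at the Meis1 start and at both Mecom starts, and the 6 windows of the Hox genes held no match. The stretches with a match are shown because ETV6 is an ETS factor and RUNX1 a RUNX factor, and because Mecom and Meis1 have the highest levels in CPM. The sequences run from 5′ to 3′ on the gene's strand, and capitals mark the match. The Meis1 stretch of 234 bases is the part of its window that lies outside annotated exons, and the shorter stretches of 30 bases hold matches that lie inside an annotated exon of another transcript.
Meis1, chr11:19018986-19019219, RUNX motif: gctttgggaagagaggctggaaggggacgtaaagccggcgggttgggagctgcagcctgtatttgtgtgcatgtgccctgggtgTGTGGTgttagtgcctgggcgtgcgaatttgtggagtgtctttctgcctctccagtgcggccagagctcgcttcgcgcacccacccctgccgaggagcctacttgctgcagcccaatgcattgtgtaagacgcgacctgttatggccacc
Meis1, chr11:19018970-19018999, ETS motif: ctgttatggccaccactaCTTCCGGgttct
Mecom upstream start, chr3:30509772-30509801, PBX with HOX motif: ccaaatcaaagTGATAAATcgctccaaact
Mecom downstream start, chr3:30013273-30013302, MEIS motif: cagaggaggctgCTGTCActttaaaaattt

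The RUNX match lies 161 to 166 bases before the Meis1 start and the ETS match 6 to 12 bases before it. Of 32851 windows of this length in the table, 14% hold the RUNX motif, 6.91% the ETS motif, 15.9% the MEIS motif and 7.68% the PBX with HOX motif, so the matches describe the letters and no binding was measured.

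The genes joined in the fusion were read as a weak check of the labels. Runx1 was at 96.3 ± 9.17 CPM (SD, n = 3) in WT and 170 ± 25.8 CPM in ETV6-RUNX1 marrow, and at 121 ± 13.0 and 227 ± 15.0 CPM in the fetal liver groups. Etv6 was at 164 ± 28.1 and 225 ± 30.1 CPM in marrow, and at 123 ± 23.8 and 178 ± 6.09 CPM in fetal liver. Neither gene overlapped within a source, but neither did 34.5% of all genes in marrow and 55.6% in fetal liver. Whether the added reads came from the fusion was not tested. Each of the 12 HSC marker genes was above 3 reads in every library, and of the 6 hepatocyte markers Ttr, Serpina1a and Fgb were at or under 3 reads in every library and Alb in every library outside ETV6-RUNX1 fetal liver. The 6 summed to 15.1 to 36.8 CPM over the libraries. Library totals ran from 32.3 to 64.5 M reads. In bone marrow they were 52.5, 51.3 and 40.1 M reads in WT and 37.0, 32.35 and 32.3 M reads in ETV6-RUNX1, without overlap. The part of depth in the bone marrow differences was not tested. The member with the fewest reads in a library, Hoxb4, had at least 101.

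Per length, Meis1 was the most abundant of the 9 genes in every group. Its level per kilobase of exon was 54.8 ± 11.7 CPM per kb in bone marrow of WT and 60.6 ± 9.06 in that of ETV6-RUNX1, and 40.0 ± 4.64 in WT fetal liver and 58.2 ± 5.72 in ETV6-RUNX1 fetal liver. Hoxa7 came next in 3 of the 4 groups, at 11.9 to 18.7 CPM per kb. In ETV6-RUNX1 fetal liver Mecom held that place at 22.7 ± 2.71 CPM per kb, above Hoxa7 at 12.1 ± 3.18 without overlap. Mecom, Hoxa9 and Hoxa10 followed in WT bone marrow at 6.76, 5.94 and 5.14 CPM per kb, and the libraries of neighbours in that order overlapped. Pbx3 and Hoxb4 were the lowest in 3 groups, at 1.80 and 1.74 CPM per kb in WT bone marrow with overlap, while in WT fetal liver Hoxb5 (1.19 CPM per kb) stood between Pbx3 (1.23) and Hoxb4 (0.787).

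**Figure D1:**
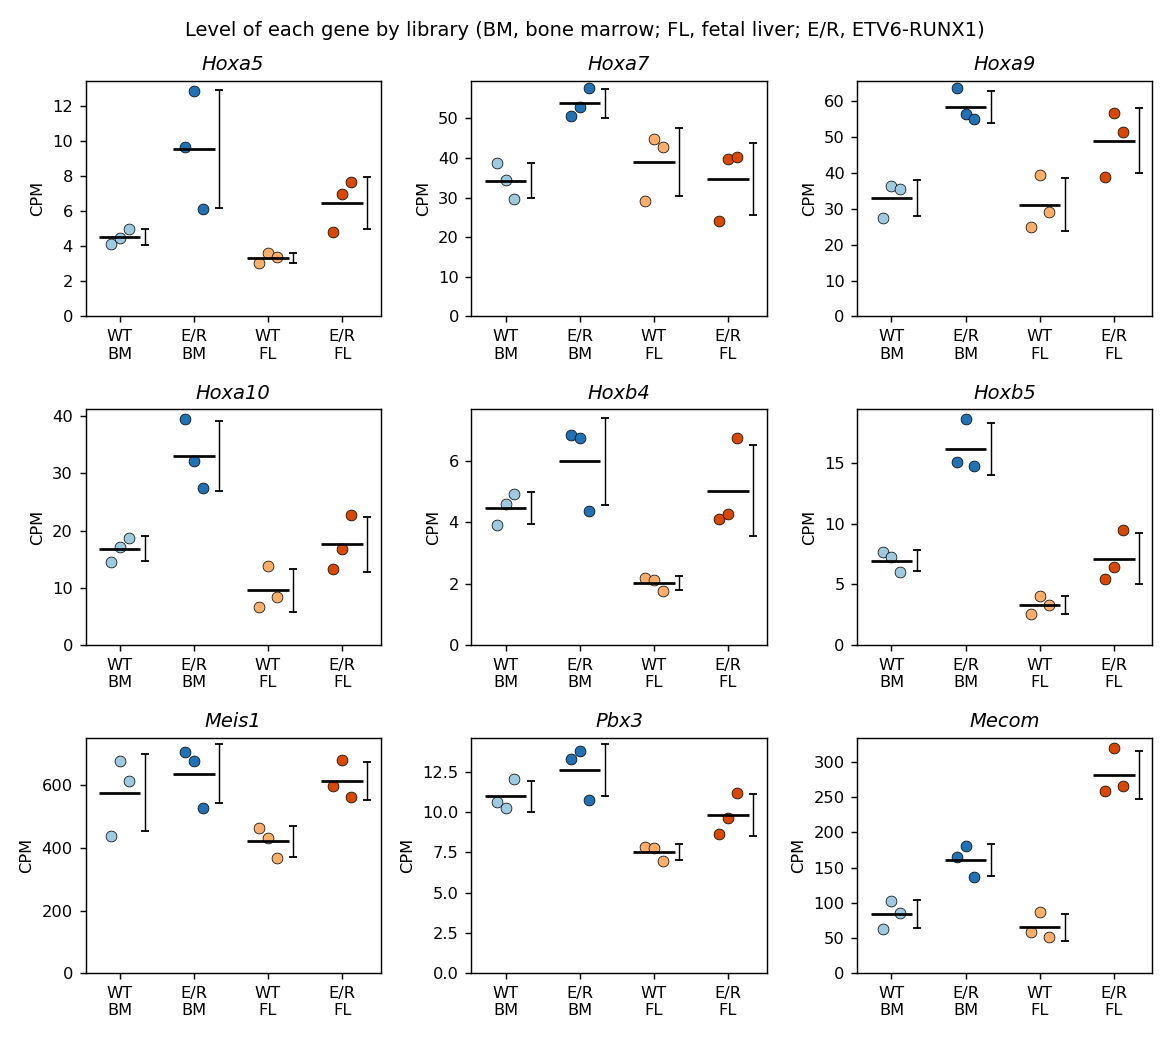
Level in CPM (linear axis from 0) of each of the 9 genes in the 12 libraries, with 1 point per library, a line at the group mean and a bar of 1 SD to its right. Mecom reaches 259 to 320 CPM in ETV6-RUNX1 fetal liver and stays at or under 181 CPM in all other libraries.

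ETV6-RUNX1 fetal liver HSCs had more RNA than WT fetal liver HSCs from 7 of the 9 genes: Mecom, Hoxb4, Hoxb5, Hoxa10, Hoxa5, Hoxa9 and Meis1. None was called lower, and Hoxa7 and Pbx3 did not pass. The count fell to 4 without WT fetal liver replicate 1 (Hoxa5, Hoxa9 and Hoxa10 lost) and to 4 without ETV6-RUNX1 fetal liver replicate 2 (Hoxa5, Hoxa9 and Meis1 lost). The test was limma on log2(CPM + 1), fitted over 14271 genes and adjusted by Benjamini-Hochberg over all of them, with a call at an adjusted p under 0.05, and changes of low genes are understated by the added 1. In this comparison 43.1% of all genes tested were called, 24.8% higher and 18.3% lower. The genotypes did not overlap for 6 of the 9 genes and for 55.6% of all genes. The median log2 fold change was 0.77 over the 9 genes and 0.08 over all genes tested. In these bulk libraries fewer cells of a type and less RNA per cell cannot be told apart.

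In bone marrow 6 of the 9 genes were called higher in ETV6-RUNX1 HSCs: Hoxb5, Mecom, Hoxa10, Hoxa5, Hoxa9 and Hoxa7. None was called lower, and Hoxb4, Pbx3 and Meis1 did not pass. The count fell to 3 without ETV6-RUNX1 bone marrow replicate 1 or 2, with no filter and with quantile normalization. Of all genes tested 19.4% were called, 14.4% higher and 4.93% lower, and the genotypes did not overlap for 6 of the 9 genes and for 34.5% of all. The comparison had a median log2 fold change of 0.81 over the 9 genes and 0.13 over all. The median of all genes depends on the scaling: it was 0.01 in bone marrow with median-of-ratios scaling and -0.10 in fetal liver with quantile normalization. Higher genes made up 57.6% of all calls in fetal liver, and 42.0% with quantile normalization. In bone marrow they made up 74.5%, but 53.0% with median-of-ratios scaling, 48.5% with quantile normalization and 50.5% with edgeR.

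**Figure D2:**
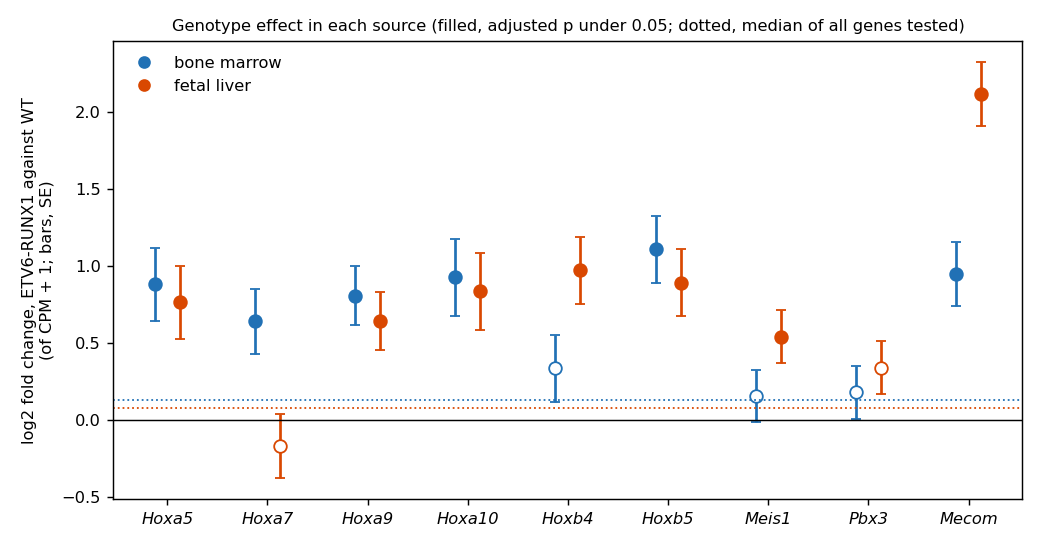
Log2 fold change of ETV6-RUNX1 against WT on the log2(CPM + 1) scale with its standard error, for each gene in bone marrow (blue) and fetal liver (red), filled where the adjusted p is under 0.05, with dotted lines at the median of all genes tested (0.13 in bone marrow, 0.08 in fetal liver). The Mecom points lie apart at 0.95 and 2.12, and the Hoxa7 points lie at 0.64 and -0.17.

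Mecom changed the most of the 9 genes in fetal liver. Replicates 1 to 3 were at 58.2, 86.9 and 51.1 CPM in WT fetal liver and at 259, 320 and 266 CPM in ETV6-RUNX1 fetal liver. In bone marrow they were at 63.3, 102 and 86.4 CPM in WT and at 166, 181 and 136 CPM in ETV6-RUNX1. The lowest ETV6-RUNX1 library was above the highest WT library in both sources, and every ETV6-RUNX1 fetal liver library was above every bone marrow library.

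The mean of Mecom rose 4.31-fold in fetal liver (282 ± 33.6 against 65.4 ± 19.0 CPM, SD, n = 3; log2 fold change 2.12 ± 0.21 SE, limma adjusted p = 2.63e-06). It rose 1.92-fold in bone marrow (161 ± 23.0 against 84.1 ± 19.7 CPM; 0.95 ± 0.21, limma adjusted p = 0.007). Both calls held under all 22 alternative settings. Relative to the median of all genes the changes were 2.04 and 0.82. An exact permutation test of 3 libraries against 3 cannot go below 0.1, the value it gave for both.

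The change in Mecom was larger in fetal liver than in bone marrow, by 1.17 ± 0.29 on the log2 scale (interaction term, limma adjusted p = 0.0233). Mecom was the only one of the 9 genes called in this test of the difference, where 9.19% of all genes were called, 5.56% with a positive and 3.62% with a negative term. The interaction was called under 15 of 21 alternatives, with adjusted p from 0.000675 to 0.0839. It was lost without WT bone marrow replicate 2 or 3, WT fetal liver replicate 3, ETV6-RUNX1 bone marrow replicate 3 or ETV6-RUNX1 fetal liver replicate 2, and with no filter on low genes.

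Meis1 encodes the cofactor that joins HOXA9 on DNA. In WT fetal liver its replicates were at 464, 433 and 368 CPM and in ETV6-RUNX1 fetal liver at 597, 680 and 563 CPM. In bone marrow they were at 439, 677 and 615 CPM in WT and at 707, 677 and 529 CPM in ETV6-RUNX1. The fetal liver groups did not overlap, and the bone marrow groups did.

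Meis1 rose 1.45-fold in fetal liver (0.54 ± 0.17, limma adjusted p = 0.0192), a call kept under 19 of 22 alternatives. In bone marrow its difference was 0.16 ± 0.17 (limma adjusted p = 0.55), with the opposite sign under edgeR (-0.0034). The interaction for Meis1 was 0.39 with a limma adjusted p of 0.324, so a difference between the sources was not shown. The antisense gene Gm16140 shares 896 bases, 8.51%, of the Meis1 exons and was at 1.17 to 6.89 CPM. Gm37818, on the same strand as Meis1, shares 1029 bases, 9.77%, and has no value in the deposited table.

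Pbx3, the PBX member among the 9 genes, passed in neither source. Its replicates were at 7.87, 7.76 and 6.95 CPM in WT and 8.63, 9.66 and 11.2 CPM in ETV6-RUNX1 fetal liver. In bone marrow they were at 10.6, 10.3 and 12.1 CPM in WT and 13.3, 13.8 and 10.8 CPM in ETV6-RUNX1. The fetal liver groups were apart by less than 1 CPM at their edges, and the bone marrow groups overlapped. The differences were 0.34 ± 0.17 in fetal liver (limma adjusted p = 0.125) and 0.18 ± 0.17 in bone marrow (limma adjusted p = 0.488), the latter with the opposite sign under quantile normalization (-0.12).

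Hoxa9, which forms a complex with MEIS1 and PBX proteins, was at 27.3, 36.4 and 35.6 CPM in WT and 63.7, 56.5 and 55.2 CPM in ETV6-RUNX1 bone marrow. In fetal liver it was at 25.1, 39.4 and 29.0 CPM in WT and 39.0, 56.7 and 51.4 CPM in ETV6-RUNX1. The bone marrow groups were apart, while ETV6-RUNX1 fetal liver replicate 1 fell just under the highest WT library.

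Hoxa9 rose 1.76-fold in bone marrow (0.81 ± 0.19, limma adjusted p = 0.01, all 22 alternatives) and 1.57-fold in fetal liver (0.65 ± 0.19, limma adjusted p = 0.0133, 19 of 22). The 2 effects differed by -0.16 with a limma adjusted p of 0.738.

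Hoxa10, its neighbour upstream, is known from myeloid progenitors. It was at 14.47, 17.1 and 18.8 CPM in WT and 39.5, 32.2 and 27.4 CPM in ETV6-RUNX1 bone marrow, and at 6.62, 13.8 and 8.36 CPM in WT and 13.2, 16.9 and 22.7 CPM in ETV6-RUNX1 fetal liver. Only the bone marrow groups were apart. Hoxa10 rose 1.97-fold in bone marrow (0.93 ± 0.25, limma adjusted p = 0.0203) and 1.83-fold in fetal liver (0.84 ± 0.25, limma adjusted p = 0.0151). Each call was kept under 17 of 22 alternatives.

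Hoxa5 was at 4.13, 4.50 and 5.01 CPM in WT and 9.70, 12.9 and 6.16 CPM in ETV6-RUNX1 bone marrow, with the widest spread in the latter. In fetal liver it was at 3.05, 3.60 and 3.40 CPM in WT and 4.81, 6.97 and 7.68 CPM in ETV6-RUNX1. The genotypes were apart in both sources. Hoxa5 rose 2.11-fold in bone marrow (limma adjusted p = 0.02, 15 of 22 alternatives) and 1.94-fold in fetal liver (limma adjusted p = 0.0185, 17 of 22).

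Hoxa7 was the HOX gene whose values went different ways in the sources. In bone marrow it was at 38.7, 34.5 and 29.7 CPM in WT and 50.6, 53.0 and 57.8 CPM in ETV6-RUNX1, without overlap. In fetal liver it was at 29.1, 44.9 and 42.7 CPM in WT and 24.2, 39.9 and 40.2 CPM in ETV6-RUNX1, with replicate 1 the lowest of both groups.

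Hoxa7 rose 1.57-fold in bone marrow (0.64 ± 0.21, limma adjusted p = 0.0446). That call is fragile, being kept under 10 of 22 alternatives, with adjusted p from 0.0252 to 0.148 over them, and it was lost with median-of-ratios scaling (0.119), edgeR (0.13) and DESeq2 (0.108). In fetal liver the difference was -0.17 ± 0.21 (limma adjusted p = 0.536), and it turned to 0.06 without ETV6-RUNX1 fetal liver replicate 1. With array weights it was -0.48 and called lower (limma adjusted p = 0.0371), the only alternative of 22 that made a call. The interaction of -0.81 ± 0.29 had a limma adjusted p of 0.0987 and was called under 2 of 21 alternatives. The antisense gene Hoxaas3 covers 586 bases, 20.4%, of the Hoxa7 exons, and was at 1.17 to 3.03 CPM, against at least 24.2 CPM for Hoxa7. The use of strand in counting is not given in the sources used here.

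Hoxb4 has long been used to expand HSCs in culture. Its replicates were at 2.18, 2.12 and 1.75 CPM in WT and 4.10, 4.26 and 6.75 CPM in ETV6-RUNX1 fetal liver, without overlap. In bone marrow they were at 3.90, 4.60 and 4.91 CPM in WT and 6.86, 6.74 and 4.36 CPM in ETV6-RUNX1, where replicate 3 lay among the WT values. Hoxb4 rose 2.49-fold in fetal liver (0.97 ± 0.22, limma adjusted p = 0.00259, all 21 alternatives that gave a value, since its mean of 4.38 CPM is under the filter at 5 CPM). In bone marrow the difference was 0.34 ± 0.22 (limma adjusted p = 0.294), and the interaction had a limma adjusted p of 0.204.

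Hoxb5 marks HSCs with long-term activity. It was at 7.64, 7.24 and 5.98 CPM in WT and 15.1, 18.6 and 14.8 CPM in ETV6-RUNX1 bone marrow. In fetal liver it was at 2.57, 4.07 and 3.33 CPM in WT and 5.42, 6.46 and 9.48 CPM in ETV6-RUNX1. The genotypes were apart in both sources.

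Hoxb5 rose 2.33-fold in bone marrow (1.11 ± 0.22, limma adjusted p = 0.00381) and 2.14-fold in fetal liver (0.89 ± 0.22, limma adjusted p = 0.0044), in each case under all 22 alternatives. The antisense gene Hoxb5os shares 100 bases with the Hoxb5 exon, 3.59% of it, and was called higher in both sources, by 1.01 ± 0.27 in fetal liver (limma adjusted p = 0.00736) and 0.90 ± 0.27 in bone marrow (limma adjusted p = 0.0295, up to 0.134 over the alternatives). Reads in those shared bases cannot be told apart without strand.

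Without the fusion, fetal liver HSCs had less Hoxb4 and Hoxb5 RNA than bone marrow HSCs. Hoxb4 was at 2.02 ± 0.234 against 4.47 ± 0.514 CPM, a ratio of 0.452 (-0.86 ± 0.22, limma adjusted p = 0.0198, 17 of 21 alternatives), and Hoxb5 at 3.32 ± 0.747 against 6.95 ± 0.867 CPM, a ratio of 0.478 (-0.89 ± 0.22, limma adjusted p = 0.0154, 19 of 22). The other 7 genes did not pass, with Hoxa10 nearest to it at -0.80 ± 0.25 (limma adjusted p = 0.0558, called under 5 of 22 alternatives). Of all genes tested 11.1% were called in this comparison, 7.77% lower and 3.38% higher in fetal liver, and the sources did not overlap for 5 of the 9 genes and for 29.5% of all. Neither call was made without WT bone marrow replicate 2 or without WT fetal liver replicate 3.

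With the fusion, Mecom was higher in fetal liver than in bone marrow, 1.75-fold (0.81 ± 0.21, limma adjusted p = 0.0101, all 22 alternatives). Hoxb5 was lower in fetal liver with a ratio of 0.44 (-1.10 ± 0.22, limma adjusted p = 0.0018, all 22), as were Hoxa10 at 0.533 (-0.89 ± 0.25, limma adjusted p = 0.0168, 19 of 22) and Hoxa7 at 0.646 (-0.65 ± 0.21, limma adjusted p = 0.031, 13 of 22). The other 5 genes did not pass. In this comparison 28.6% of all genes were called, 10.4% higher and 18.2% lower in fetal liver, and the sources did not overlap for 4 of the 9 genes and for 42.2% of all. The source comparisons share their libraries with the genotype comparisons above.

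Ratios of reads within a library do not depend on the scaling between libraries, and the pairs below were chosen after their levels were seen, so they are given without a test. Per 100 Meis1 reads there were 14.53 ± 0.557 Mecom reads (SD, n = 3) in bone marrow of WT, 25.3 ± 1.71 in that of ETV6-RUNX1, 15.5 ± 4.01 in WT fetal liver and 45.9 ± 2.20 in ETV6-RUNX1 fetal liver. The WT groups overlapped, and both ETV6-RUNX1 groups lay above them without overlap. Per 100 Hoxa9 reads there were 126 ± 18.6 Hoxa7 reads in WT and 70.1 ± 8.06 in ETV6-RUNX1 fetal liver without overlap, and 107 ± 30.8 and 92.7 ± 12.6 in bone marrow with overlap.

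Hoxa10 against Hoxa9 followed the source. Per 100 Hoxa9 reads there were 50.9 ± 3.28 Hoxa10 reads in WT and 56.2 ± 6.24 in ETV6-RUNX1 bone marrow, against 30.1 ± 4.48 and 35.9 ± 7.41 in fetal liver, and the sources did not overlap in either genotype while the genotypes overlapped in both sources. Per 100 Hoxb4 reads there were 278 ± 59.5 Hoxb5 reads in ETV6-RUNX1 bone marrow, and 142 to 166 in the means of the other 3 groups.

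**Figure D3:**
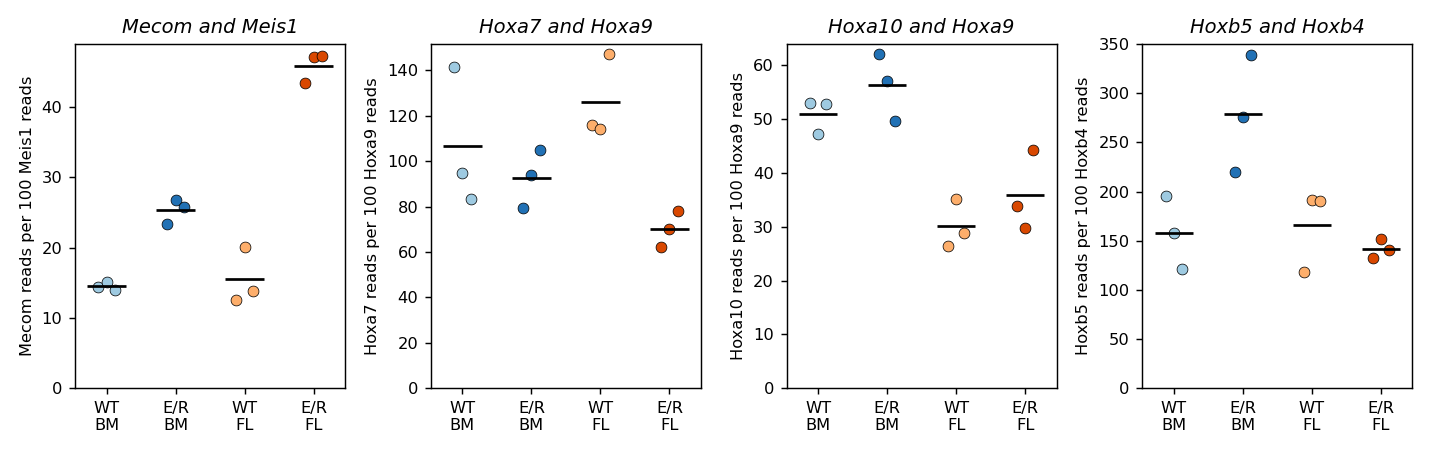
Reads of 1 gene per 100 reads of another in each library (linear axes from 0, points are libraries, lines are group means) for 4 pairs of genes. The ratio of Mecom to Meis1 is set apart by genotype, with 45.9 as the mean of ETV6-RUNX1 fetal liver, and that of Hoxa10 to Hoxa9 by source.

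The 6 HOX genes among the 9 held 90.1% to 95.1% of the CPM of all 39 HOX genes in each library. Of the 11 HOXA genes 6 could be tested and of the 10 HOXB genes 4, and no gene of the HOXC and HOXD clusters (9 each) passed the filter. HOXA genes summed to 92.4 ± 5.02 CPM in WT and 159 ± 8.46 CPM in ETV6-RUNX1 bone marrow, and to 85.5 ± 19.3 and 113 ± 24.5 CPM in fetal liver. HOXB genes summed to 15.4 ± 2.09 and 29.5 ± 3.02 CPM in bone marrow, and to 6.90 ± 1.47 and 15.7 ± 4.33 CPM in fetal liver. HOXD genes, which were not tested, summed to 0.0210 ± 0.0193 and 0.387 ± 0.258 CPM in bone marrow. In fetal liver they summed to 0.0792 ± 0.0859 CPM in WT and 2.06 ± 1.61 CPM in ETV6-RUNX1. Hoxd1 was at 0.483 to 2.01 CPM in ETV6-RUNX1 fetal liver and at most 0.0540 CPM in any other library.

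Outside the 6 genes, Hoxa3 rose in fetal liver (0.97 ± 0.24, limma adjusted p = 0.00547). Hoxb6 rose in bone marrow (0.94 ± 0.22, limma adjusted p = 0.0109, lost under edgeR at 0.056) and in fetal liver (0.64 ± 0.22, limma adjusted p = 0.0327, up to 0.109 over the alternatives). Both genes were low. Hoxa3 was at 0.985 ± 0.438 CPM in WT and 2.96 ± 1.18 CPM in ETV6-RUNX1 fetal liver. Hoxb6 was at 0.917 ± 0.314 and 2.75 ± 1.10 CPM in bone marrow and at 0.274 ± 0.172 and 0.978 ± 0.199 CPM in fetal liver. The added 1 shrinks such changes, so the log2 values do not rank the sources. Hoxa2 and Hoxb9 were not called in either source. Hoxb5os was the one call among 4 tested noncoding RNAs of the clusters.

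**Figure D4:**
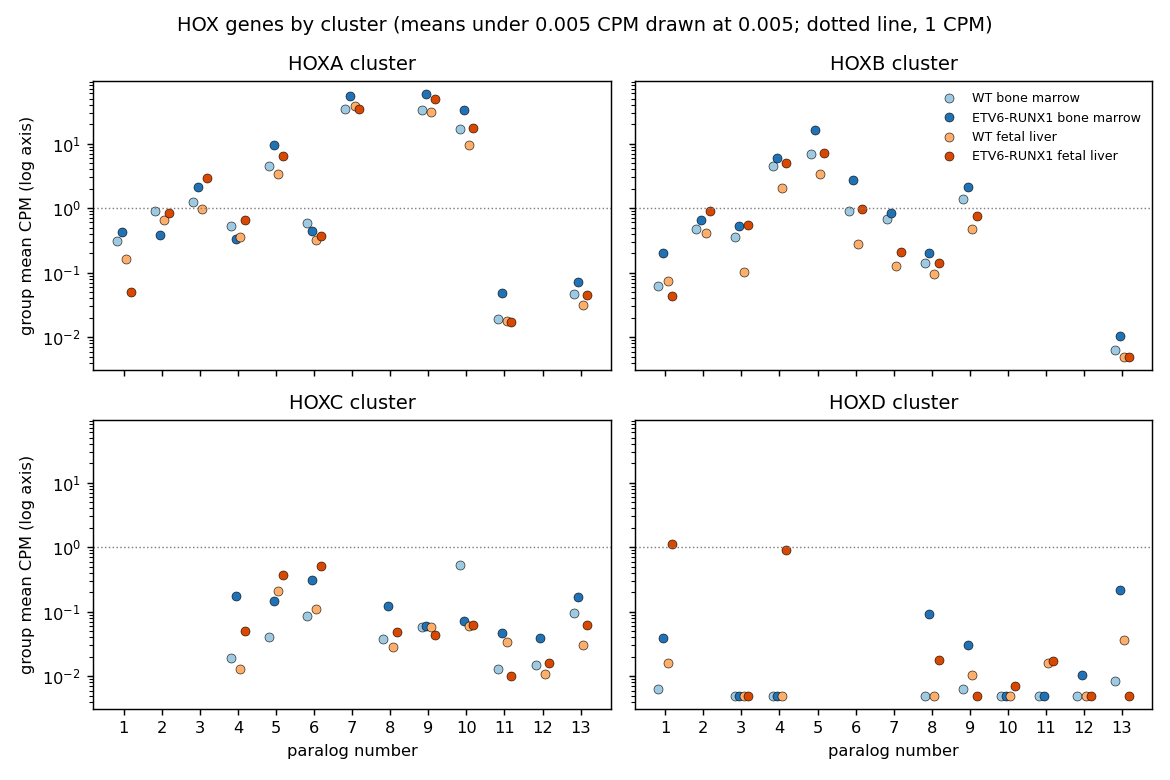
Group mean CPM (log axis) of the HOX genes by cluster and paralog number, with means under 0.005 CPM drawn at 0.005 and a dotted line at 1 CPM. HOXA paralogs 5, 7, 9 and 10 and HOXB paralogs 4 and 5 lie above the other HOX genes within each group, and the HOXC and HOXD genes stay near or under 1 CPM.

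The other TALE homeobox genes belong to the class of MEIS and PBX. Of 6 tested, 1 rose and 1 fell in fetal liver, where 43.1% of all genes were called, and none passed in bone marrow, where 19.4% were. Quantile normalization gave 0 higher and 2 lower in fetal liver. Pbx2 rose in fetal liver (0.59 ± 0.21, limma adjusted p = 0.033, but 0.23 with quantile normalization). Pbx4 fell in fetal liver (8.27 ± 1.31 to 4.89 ± 0.395 CPM, -0.65 ± 0.17, limma adjusted p = 0.00677) while it was at 12.2 ± 0.792 in WT and 16.9 ± 0.943 CPM in ETV6-RUNX1 bone marrow (0.43, limma adjusted p = 0.0849), and this difference between the sources was called (-1.08 ± 0.24, limma adjusted p = 0.0123).

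Among 15 genes of the PRDM family and partners of MECOM, 4 rose and 3 fell in fetal liver, and 4 rose and 1 fell in bone marrow. Over all genes 24.8% rose and 18.3% fell in fetal liver, close to the shares in this list, and 14.4% rose and 4.93% fell in bone marrow. The balance depends on the scaling, with 3 up and 5 down in fetal liver and 3 up and 3 down in bone marrow under quantile normalization. Prdm16, the closest relative of Mecom and a stem cell regulator, rose from 14.3 ± 2.60 to 34.1 ± 5.14 CPM in fetal liver (1.21 ± 0.22, limma adjusted p = 0.000625). It rose in bone marrow as well (0.78 ± 0.22, limma adjusted p = 0.0245). Prdm2 rose in fetal liver (0.83 ± 0.19, limma adjusted p = 0.00256). In bone marrow Prdm1 rose (0.92 ± 0.23, limma adjusted p = 0.0151) and so did Ehmt2, a histone H3K9 methyltransferase (0.68 ± 0.15, limma adjusted p = 0.00666). Prdm1 also rose in fetal liver (0.70 ± 0.23, limma adjusted p = 0.025). Hdac1, a histone deacetylase, fell in both sources, by 0.42 ± 0.12 in fetal liver (limma adjusted p = 0.0133) and 0.58 ± 0.12 in bone marrow (limma adjusted p = 0.00607). Another deacetylase gene, Hdac2, fell in fetal liver (-0.46 ± 0.18, limma adjusted p = 0.0471, up to 0.157 over the alternatives). The medians of this list were 0.24 in both sources.

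KMT2A, a histone methyltransferase, keeps HOXA genes and Meis1 active, and its partners act in elongation. Of 22 tested genes of this list 7 rose and 2 fell in fetal liver, and 3 rose and none fell in bone marrow. The 3 that rose in bone marrow are a share close to the 14.4% of all genes, and the 7 in fetal liver stand beside 24.8% of all genes. Kmt2a itself rose in fetal liver (1.31 ± 0.16, limma adjusted p = 2.54e-05) and in bone marrow (0.85 ± 0.16, limma adjusted p = 0.00337). Mllt3, an elongation partner and HSC regulator, rose from 74.9 ± 12.0 to 345 ± 53.5 CPM in fetal liver (2.19 ± 0.15, limma adjusted p = 6.35e-08) and from 90.4 ± 3.93 to 179 ± 17.1 CPM in bone marrow (limma adjusted p = 0.000841), with a difference between the sources of 1.22 ± 0.21 (limma adjusted p = 0.00267). Aff1 rose in fetal liver (1.17 ± 0.16, limma adjusted p = 4.86e-05) and in bone marrow (0.52 ± 0.16, limma adjusted p = 0.032, up to 0.142 over the alternatives and 0.0543 with the replicate block). The genes that fell in fetal liver were Dpy30 (-0.91 ± 0.15, limma adjusted p = 0.000345) and Wdr5 (-0.58 ± 0.23, limma adjusted p = 0.0498, up to 0.168 over the alternatives and 0.0716 with the replicate number as a block), core subunits shared by the KMT2 complexes. The medians of the list were 0.22 in fetal liver and 0.31 in bone marrow.

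Of 14 tested genes linked to HOXA9 and MEIS1 in earlier work, 7 rose and 2 fell in fetal liver, and 8 rose and none fell in bone marrow, with medians of 0.40 and 0.47, beside 24.8% and 14.4% of all genes that rose. With median-of-ratios scaling 4 rose and 1 fell in bone marrow. Igf1, a growth factor, rose from 3.76 ± 1.99 to 84.9 ± 8.39 CPM in fetal liver (4.25 ± 0.29, limma adjusted p = 6.6e-08) and from 4.37 ± 2.01 to 14.2 ± 3.08 CPM in bone marrow (limma adjusted p = 0.00289). Trib2, a pseudokinase gene, rose in fetal liver (2.14 ± 0.20, limma adjusted p = 1.35e-06). Camk2d, a kinase gene, rose in fetal liver by 1.72 ± 0.19 (limma adjusted p = 9.54e-06) and in bone marrow by 1.08 ± 0.19 (limma adjusted p = 0.00222). Lmo2, a bridging factor of stem cells, rose in fetal liver by 0.64 ± 0.15 (limma adjusted p = 0.0029) and in bone marrow by 0.83 ± 0.15 (limma adjusted p = 0.00204). Flt3, a receptor of early lymphoid and myeloid progenitors, fell in fetal liver from 22.8 ± 7.67 to 5.99 ± 2.10 CPM (-1.75 ± 0.38, limma adjusted p = 0.00193), and so did the cell cycle kinase gene Cdk6 (-0.76 ± 0.26, limma adjusted p = 0.031, up to 0.143 over the alternatives).

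Of 9 tested genes linked to MECOM 4 rose and 2 fell in fetal liver and 4 rose and none fell in bone marrow, with medians of 0.57 and 0.28, beside the same shares of all genes. Hlf, a stem cell regulator, rose by 1.47 ± 0.16 in fetal liver (limma adjusted p = 7.41e-06) and 0.75 ± 0.16 in bone marrow (limma adjusted p = 0.00607). Serpina3g, a protease inhibitor gene, rose by 2.25 ± 0.15 in fetal liver (limma adjusted p = 7.46e-08) and 0.93 ± 0.15 in bone marrow (limma adjusted p = 0.00146). The integrin gene Itga6 rose by 1.81 ± 0.16 in fetal liver (limma adjusted p = 1.06e-06) and 0.52 ± 0.16 in bone marrow (limma adjusted p = 0.0372). Spi1, which encodes PU.1, rose by 1.38 ± 0.27 in fetal liver (limma adjusted p = 0.000953) and 1.37 ± 0.27 in bone marrow (limma adjusted p = 0.00386). The genes that fell in fetal liver were Gfi1b (-0.88 ± 0.22, limma adjusted p = 0.00535) and Zbtb16 (-0.82 ± 0.32, limma adjusted p = 0.0499, up to 0.178 over the alternatives and 0.0541 with the replicate block). Gfi1b encodes a transcriptional repressor that acts within the erythroid and megakaryocyte lines. Some of the genes in these lists were known from these libraries when the lists were made, so the counts are no independent evidence of direction.

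Similar profiles over the 12 libraries were sought among 9377 genes with at least 5 CPM on average. The 9 genes, unnamed gene models and genes of the X and Y chromosomes were left out of that set. The most similar genes had the smallest root mean square difference of log2(CPM + 1), each gene centred on its mean. For Mecom they were Mllt3 (0.207) and St8sia4 (0.215), against a spread of Mecom of 0.863 around its own mean. For Meis1 they were Kdm5a (0.0614) and Zfp758 (0.0781), for Hoxa9 Arid4b (0.143) and Srpk2 (0.163), and for Hoxb5 Ptger4 (0.195) and Nfix (0.200). For Hoxa7 they were Ccdc107 (0.152) and Ptprcap (0.158), and for Hoxa10 Cbx6 (0.173) and Tnks1bp1 (0.181). For Hoxa5 they were Zfp319 (0.161) and Spred3 (0.180), for Hoxb4 Gabbr1 (0.167) and Tut4 (0.169), and for Pbx3 Lrif1 (0.112) and Zfp950 (0.117). Within the 9 genes the most similar were Meis1 and Pbx3 (0.210), then Hoxa10 and Hoxb5 (0.237), and the least similar were Hoxa7 and Mecom (0.906). All profiles come from the same 12 libraries, which differ in depth, so these values are descriptions.

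Markers of HSCs and of other cell types differed with the groups. The 12 HSC markers, Mllt3 and Hlf among them, summed to 1760 to 2138 CPM in WT and 4146 to 4412 CPM in ETV6-RUNX1 fetal liver, and to 1870 to 2730 and 2886 to 3175 CPM in bone marrow. Of these 12 genes 9 were called higher and 1 lower in fetal liver, beside 24.8% and 18.3% of all genes. In bone marrow 5 were called higher and 1 lower, beside 14.4% and 4.93% of all genes. The 8 megakaryocyte markers, which include Pf4 and Itga2b, summed to 3219 to 4721 CPM in WT and 7803 to 8770 CPM in ETV6-RUNX1 fetal liver, with 4 called higher, 1 lower and 3 not called. The 9 erythroid markers summed to 784 to 1060 CPM in WT and 1493 to 2220 CPM in ETV6-RUNX1 fetal liver, and of 7 tested 5 were called higher and 0 lower. The 8 mast cell and basophil markers, Gata1 among them, summed to 80.3 to 111 and 214 to 282 CPM. Only 3 of the 8 could be tested, of which 1 was called higher and 1 lower, with a median log2 fold change of -0.28. Mcpt8, Prss34, Fcer1a and Tpsb2 were at or under 3 reads in ETV6-RUNX1 fetal liver, Prss34 and Tpsb2 in WT too. The 10 granulocyte and monocyte markers summed to 223 to 301 CPM in WT and 67.1 to 85.1 CPM in ETV6-RUNX1 fetal liver. S100a8 and S100a9 were at or under 3 reads in both, Ly6c2 in WT, and Elane and Ctsg in ETV6-RUNX1, and 3 of the 5 tested genes of that list were called higher and 2 lower.

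In bone marrow the megakaryocyte markers summed to 1421 to 1914 CPM in WT and to 701, 2220 and 491 CPM in ETV6-RUNX1 replicates 1 to 3, so replicate 2 stood apart. Without that library Hoxa9, Hoxb5 and Mecom were called in bone marrow, and the same calls were left without replicate 1. The log2 fold changes without replicate 2 were 0.94 for Hoxa10 (0.93 with all libraries), 0.65 for Hoxa7 (0.64) and 0.66 for Hoxa5 (0.88). The granulocyte and monocyte markers summed to 155 to 334 CPM in WT and 123 to 150.4 CPM in ETV6-RUNX1 bone marrow, and the mast cell and basophil markers to 41.5 to 56.5 and 15.4 to 39.3 CPM, both without overlap. The genes did not all follow the sums. Of the 5 tested granulocyte and monocyte genes 2 were called higher in ETV6-RUNX1 bone marrow and 1 lower. Of the 3 tested mast cell and basophil genes 0 were called higher there and 2 lower. The erythroid markers summed to 272 to 548 and 446 to 645 CPM with overlap, and of 7 tested 0 were called higher, 1 lower and 6 not called. Of the 8 megakaryocyte markers 0 were called higher in ETV6-RUNX1 bone marrow, 1 lower and 7 not called. The lymphoid markers summed to 38.6 to 81.6 CPM and the endothelial and stromal markers to 34.2 to 44.1 CPM over all libraries. The part of any of these cell types in the values of the 9 genes was not tested.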

How the data were processed

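Per the labels' protocols, a Norgen kit gave the RNA, a SMARTer Pico v2 kit the 12 stranded total RNA libraries, and a NovaSeq the read pairs. The submitters' processing notes name STAR 2.5.1a, featureCounts 1.4.6-p5, Salmon 0.8.2, edgeR, limma and GRCm38, with no role given. The authors deposited CPM per gene. All values were whole multiples of a step per library (tolerance 0.01 step), so 100% could be turned back into whole reads. Totals were 32.3 to 64.5 M reads, and since no molecular identifiers were used a floor of 3 reads covers counting error only.

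The 14271 genes that reached 1 CPM in 3 or more of the 12 libraries were tested with limma 3.58.1 (trend, two-sided) on log2(CPM + 1), with 4 group coefficients and 8 residual degrees of freedom, in 5 comparisons. On the recovered reads, edgeR 4.0.16 called 6178 genes in fetal liver and 2739 in bone marrow, and DESeq2 1.42.0 called 6540 and 3297, against 6151 and 2763 with limma. Further alternatives were a pseudocount of 0.1, no filter, a mean of at least 5 CPM, median-of-ratios scaling, quantile normalization, a replicate block, array weights, only the 6 libraries compared, and each library left out. Levels per kb use the union of GENCODE M21 exons. Scripts were tested on simulated data.

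The genes and lists were chosen with earlier results of these data known. Named were all 9 genes, at most 3 called genes by smallest p per pathway list in the genotype and interaction comparisons, and the 2 nearest profiles per gene. Hoxa2 and Hoxb9, and Hdac2, Dpy30, Wdr5, Flt3, Cdk6, Gfi1b and Zbtb16, which fell, were named after their values were seen. The same holds for Hoxd1, for Prdm1, Lmo2 and Spi1 in fetal liver, and for Prdm16 and Itga6 in bone marrow. These later values are left out of the counts of alternatives below. Some genes counted in the lists are not reported by name here.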

Additional observations from a re-analysis of the deposited data

Results flagged for a closer look

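For 7 of the genes named, the change between WT and ETV6-RUNX1 differed between fetal liver and bone marrow in the limma interaction term, given here as the log2 effect in fetal liver minus that in bone marrow. Mecom differed by 1.17 (adjusted p = 0.0233). Mllt3 differed by 1.22 (adjusted p = 0.00267), Igf1 by 2.70 (adjusted p = 0.00103) and Trib2 by 1.80 (adjusted p = 0.00121). Serpina3g differed by 1.32 (adjusted p = 0.0021) and Itga6 by 1.29 (adjusted p = 0.00316). In these 6 genes the effect was the larger in fetal liver. Pbx4 differed by -1.08 (adjusted p = 0.0123), the one negative value among these 7 genes. The 6 genes other than Mecom kept their call under every alternative that gave a value, and Mecom kept it under 15 of 21.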

How the results depend on the processing

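Of 976 alternative values for the 9 genes in 5 comparisons, 878 kept their direction and side of the threshold, 65 lost the call, 13 gained it and 20 changed sign. For the named genes of the lists, 879 of 953 kept both and 74 lost the call, in Hoxb6, Pbx2, Hdac1, Hdac2, Wdr5, Cdk6 and Zbtb16 in fetal liver and Hoxb6, Hoxb5os, Prdm1 and Aff1 in bone marrow.

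No filter gave 767 interaction genes and left 3 of the 9 genes called in bone marrow, 0 in the interaction, 1 in WT between sources and 2 in ETV6-RUNX1 between sources. Quantile normalization left 3 in bone marrow. A mean of at least 5 CPM left 1 in WT between sources, since Hoxb4, with a mean of 4.38 CPM, has no value there. Array weights gave 3637 interaction genes and 4401 genes in WT between sources, with 2 and 5 of the 9 genes. Using only the 6 libraries compared gave 1601 genes in bone marrow. Why the other counts moved was not tested, beyond the larger number of genes under no filter and the fewer libraries in the last.

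With each library left out in turn, the 9 genes gave 4 to 7 calls in fetal liver, 3 to 6 in bone marrow, 0 to 2 in the interaction, 0 to 4 in WT between sources and 2 to 4 in ETV6-RUNX1 between sources. In fetal liver 4 calls were left without WT replicate 1 or ETV6-RUNX1 replicate 2, and in bone marrow 3 without ETV6-RUNX1 replicate 1 or 2. In ETV6-RUNX1 between sources 2 were left without bone marrow replicate 1 or fetal liver replicate 1. Calls over all genes ran from 4666 to 6638 in fetal liver, 1520 to 2924 in bone marrow, 731 to 2332 in the interaction, 868 to 2781 in WT between sources and 2831 to 4611 in ETV6-RUNX1 between sources.

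All sign changes were in values that were not called. In fetal liver Hoxa7 ranged from -0.36 to 0.064 with a library left out (main value -0.17). In bone marrow Meis1 was -0.0034 with edgeR and -0.029 to 0.28 with a library left out, and Pbx3 was -0.12 with quantile normalization. In the interaction, leaving out a library gave -0.37 to 0.10 for Hoxa5, -0.30 to 0.013 for Hoxa9 and -0.30 to 0.18 for Hoxa10. Between sources in WT, Hoxa9 was 0.010 with quantile normalization, 0.023 with edgeR, 0.016 with DESeq2 and -0.27 to 0.040 with a library left out. In ETV6-RUNX1, Meis1 was 0.12 with median-of-ratios scaling, 0.11 with edgeR, 0.12 with DESeq2 and -0.18 to 0.031 with a library left out. The cause was not tested.

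The main fit did not treat same-numbered libraries as pairs. Their deviations correlated at -0.44 to 0.22, which does not settle whether they were handled together. With the replicate number as a block, 5838 genes were called in fetal liver, 2334 in bone marrow, 1033 in the interaction, 1425 in WT between sources and 3739 in ETV6-RUNX1 between sources, and the 9 genes gave 7, 6, 1, 2 and 4 calls, as without it. The block ended the calls of Aff1 in bone marrow (adjusted p = 0.0543) and of Wdr5 (adjusted p = 0.0716) and Zbtb16 (adjusted p = 0.0541) in fetal liver, and no other call among those counted above. Genes with a mean under 5 CPM have no value with that filter, and the interaction has no fit of only 6 libraries. Since 3 libraries against 3 cannot go below 0.1 in an exact test, all calls rest on the spread pooled by the model.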
